A study of Mus musculus with 4 samples.

Results

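Ribosome footprints were examined for 10 genes of cell-to-cell junctions, out of 53465 gene IDs in the deposited table, in 4 libraries of MLE-12 cells. The genes were chosen by a list of Ensembl IDs that uses no threshold on measured values but was drawn up with earlier results of these data known, and their symbols came with that list: the cadherins Cdh1 and Cdh2, their cytoplasmic partner Ctnnb1, the epithelial adhesion molecule Epcam, the tight junction genes Tjp1, Ocln, Cldn3, Cldn4 and Cldn7, and the desmosome gene Dsp. The count table holds no symbols, and the gene table at hand lists all 10 symbols but pairs 0 of its 49997 genes with an Ensembl ID, so the pairing could not be checked independently. MLE-12 is an established line of mouse lung epithelium that carries the SV40 large T antigen and serves as a stand-in for alveolar type 2 cells. The libraries came from cells given 5 µM 1-nitropyrene, a nitrated polycyclic compound of diesel exhaust, for 12 h (replicates 2 and 3) and from control cells cultured without it (replicates 1 and 2). Cells of both groups were rinsed in buffer with cycloheximide, an inhibitor that stops ribosomes on the mRNA. The labels do not say that the samples of a group were separate cultures, so the p-values rest on a spread that may be technical. In the main fit that spread was estimated across genes, and a gene's own replicate spread did not enter its p-value or standard error.

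Epithelial cells are held together by junctions of several kinds. In adherens junctions, cadherins of neighbouring cells bind each other and hold beta-catenin, the product of Ctnnb1, on their cytoplasmic side; beta-catenin that is not held there can enter the nucleus and act with transcription factors in Wnt signalling. Tight junctions, built of claudins and occludin and anchored by scaffolds such as the product of Tjp1, seal the space between cells, and desmosomes tie keratin filaments to the membrane through the plaque protein desmoplakin, the product of Dsp. E-cadherin, the product of Cdh1, is typical of epithelia, and N-cadherin, the product of Cdh2, is typical of mesenchymal and neural cells; epithelial cells that undergo a mesenchymal transition commonly lose the first and gain the second.

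The libraries held 1243186 and 1357034 counts in the 1-nitropyrene group and 1261372 and 1136145 in the control group. Counts scaled to a common library size (CPM) were normalized by TMM, a normalization that takes most genes as unchanged, so that 1 count was worth 0.761 to 0.860 CPM. A footprint level reflects both the amount of an mRNA and its occupancy by ribosomes, and RNA libraries of the same cells are not analysed here. In bulk libraries such as these, fewer cells of a type and less RNA per cell cannot be told apart. Levels are compared between libraries and not between genes, since no coding lengths were used. Between genes, only no or few counts are set beside many, and coding length enters that contrast. Of the 7719 genes that passed the filter on low counts, 17.3% were called different between 1-nitropyrene and control cells (adjusted p under 0.05 after Benjamini-Hochberg correction of edgeR's quasi-likelihood test), 9.68% higher and 7.58% lower. With scaling to total counts this balance turned, as the 747 higher and 585 lower calls became 406 higher and 1110 lower.

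The 10 genes fell into those with no or almost no footprints and those with many. Cdh1, Ocln, Cldn3, Cldn4, Cldn7 and Dsp, 6 of the 10, had 0 counts in each of the 4 libraries. Epcam had 15 counts in all. Ctnnb1, Tjp1 and Cdh2 were read in every library, with 7154, 811 and 759 counts in total. Thus of the pair of cadherins, the epithelial one had no footprint and the other had 161 or more per library, in 1-nitropyrene and control cells alike.

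Promoter sequences of the members are shown to set the members at or near 0 beside those with many counts at a motif known from epithelial junction genes such as Cdh1: the E-box letters CACCTG or, on the other strand, CAGGTG, which transcription factors of the Snail and Zeb families bind. RefSeq windows of GRCm38.p6, running from 250 bases before to 50 bases after a start site, were matched for 8 of the 10 members. They made 11 windows in all. Cdh1 had no window under its symbol, and Cdh2, on a chromosome left out of the search for members, was not searched. Both are named only. The 250 bases before the start site are given here for Epcam, which had few counts, and for Tjp1 and Ctnnb1, which had many, with E-boxes in capitals:
Epcam, chr17:87635729-87635978, plus strand: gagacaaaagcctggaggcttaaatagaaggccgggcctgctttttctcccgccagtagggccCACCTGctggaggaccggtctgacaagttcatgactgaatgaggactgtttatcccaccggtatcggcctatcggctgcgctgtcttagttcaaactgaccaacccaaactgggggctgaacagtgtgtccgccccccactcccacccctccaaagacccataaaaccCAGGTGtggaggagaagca
Tjp1, chr7:65371245-65371494, minus strand: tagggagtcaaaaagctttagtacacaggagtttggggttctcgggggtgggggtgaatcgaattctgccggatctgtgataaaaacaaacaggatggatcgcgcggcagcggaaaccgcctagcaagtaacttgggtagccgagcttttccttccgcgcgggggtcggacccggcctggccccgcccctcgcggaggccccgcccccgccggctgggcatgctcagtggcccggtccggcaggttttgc
Ctnnb1, chr9:120933150-120933399, plus strand: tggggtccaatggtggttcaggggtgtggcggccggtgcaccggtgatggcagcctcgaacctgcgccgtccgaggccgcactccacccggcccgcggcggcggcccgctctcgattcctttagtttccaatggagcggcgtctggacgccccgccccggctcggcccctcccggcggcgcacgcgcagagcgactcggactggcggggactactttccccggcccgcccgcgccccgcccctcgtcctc

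Neither the Tjp1 nor the Ctnnb1 windows hold an E-box. The Tjp1 window lies inside the annotated gene, chr7:65296165-65527850, and no window covered the upstream end of that gene. The Epcam stretch holds both spellings of the E-box, at positions -187 and -19 from the start site. The other members with E-boxes were all among those at 0 counts, and each of their sites is given with the bases around it, 30 bases in all, read along the strand of the gene, the E-box in capitals:
Ocln, chr13:100552694-100552723, minus strand: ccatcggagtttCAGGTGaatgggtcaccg
Ocln, chr13:100552549-100552578, minus strand: ctaggggctcggCAGGTGggtcccagcgca
Cldn3, chr5:134986233-134986262, plus strand: caaagccacaggCAGGTGcaggggcagtct
Cldn4, chr5:134946931-134946960, minus strand: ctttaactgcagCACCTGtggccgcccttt
Cldn4, chr5:134946906-134946935, minus strand: cctttcttgttgCAGGTGcaggcaggaaag
Cldn7, chr11:69965312-69965341, plus strand: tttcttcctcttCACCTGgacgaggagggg
Cldn7, chr11:69965352-69965381, plus strand: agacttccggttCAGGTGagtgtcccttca
Dsp, chr13:38151285-38151314, plus strand: gaagaagccgacCAGGTGtggcctgggcgc

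From the start site of their window these E-boxes begin at positions 8 and -68 in Ocln (first and second window), 32 in Cldn3, -14 and 12 in Cldn4, -97 and -57 in Cldn7 and 4 in Dsp. At least 1 E-box was thus found in 6 of the 8 members matched, Epcam, Ocln, Cldn3, Cldn4, Cldn7 and Dsp, which held 10 distinct sites. All 6 had at most 5 counts in any library. The Cldn7 sites lie in the second of its windows, which lies inside the annotated gene, as that of Tjp1 does. Its first window, which spans the annotated start of the gene, has none. Cldn7 is thus among the 6 by its second window only. The other 2 matched members, Tjp1 and Ctnnb1, had many counts. Cdh2, which also had many counts, was not searched, so this split does not cover all members with many counts. Over all RefSeq promoter windows, 20.2% of 32851 held an E-box, and 22.6% of 27025 genes had one in any window. The windows also differed in base composition: those of Tjp1 and Ctnnb1 held 31 to 51 CpG dinucleotides and those of the other 6 members held 7 to 27. The motif was chosen after the counts were seen, so neither the split nor the shares over all genes are a test of it. Genes of the Snail and Zeb families were not examined. A match describes letters and shows no binding, and no match says only that the letters are not in this window; the part of the E-boxes in the counts was not tested.

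Ctnnb1 (ENSMUSG00000006932) encodes beta-catenin, which links cadherins to the cytoskeleton and carries Wnt signals, and is annotated on chr9:120933400-120960507. It had 1893 and 1948 counts in the 1-nitropyrene libraries and 1806 and 1507 counts in the control libraries. As levels these were 1629 and 1543 CPM in 1-nitropyrene cells and 1374 and 1271 CPM in control cells. Both 1-nitropyrene libraries lay above both controls, and groups did not overlap, in either direction, for 57.3% of all genes tested. Ctnnb1 rose 1.20-fold, averaging 1586 ± 60.8 CPM with 1-nitropyrene and 1322 ± 72.3 CPM in controls (SD, n = 2 each; log2 fold change by edgeR 0.26 ± 0.044 SE, adjusted p = 1.96e-07). It was the only member called, of the 3 that could be tested, where 17.3% of all genes tested were called. The 95% interval of its fold ran from 1.13 to 1.27.

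The call for Ctnnb1 held with TMM scaling and not with scaling to total counts. With total counts its log2 fold change was 0.096 ± 0.043 SE (edgeR adjusted p = 0.0979, n = 2 each). That scaling moved the median log2 fold change of all tested genes from -0.0076 with TMM to -0.17. Ctnnb1 lay 0.27 above the median of all tested genes on either scale. A change of scaling shifts all genes by nearly the same amount, so this distance could hardly change and is no test of the rise. Depth also bears on the call, since Ctnnb1 had more counts than 99.5% of the tested genes. Of the 32 other genes with a mean count within 1.3-fold of it, 25 (78.1%) were called, 22 higher and 3 lower. The change of Ctnnb1 was larger in size than that of 13 of these 32 genes.

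**Figure D1:**
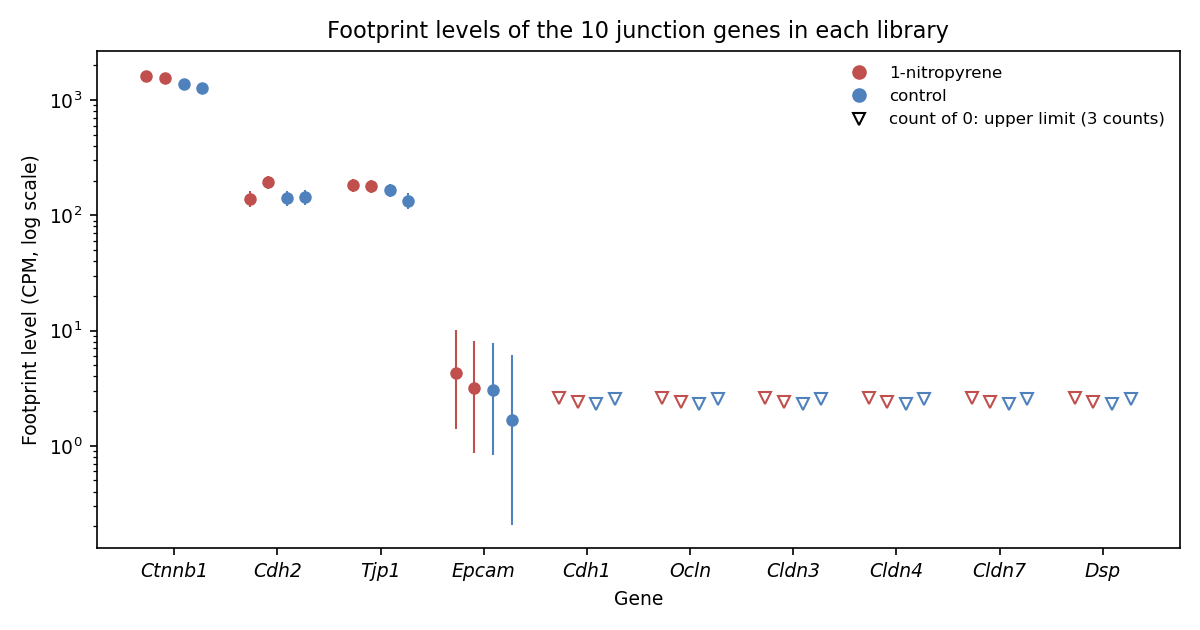
Footprint level in CPM (log scale) of each of the 10 genes in the 4 libraries, 1-nitropyrene in red and control in blue. Bars are 95% Poisson intervals, which cover counting error only, and open triangles mark the upper limit that a count of 0 allows; the 6 genes to the right have triangles alone, and Ctnnb1 lies between 1271 and 1629 CPM.

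Tjp1 (ENSMUSG00000030516) encodes the zonula occludens scaffold that ties claudins and occludin to actin, and is annotated on chr7:65296165-65527850. It had 211 and 226 counts in the 1-nitropyrene libraries and 216 and 158 counts in the control libraries. Its levels were 182 and 179 CPM with 1-nitropyrene and 164 and 133 CPM in controls. The groups did not overlap, as held for 57.3% of all genes tested. The mean was 180 ± 1.81 CPM in 1-nitropyrene cells and 149 ± 21.9 CPM in control cells (SD, n = 2 each), and the difference did not pass the test (edgeR log2 fold change 0.27 ± 0.13 SE, unadjusted p = 0.0352, adjusted p = 0.133). The 95% interval of the fold, not adjusted for the number of genes tested, ran from 1.01 to 1.44. The log2 fold change moved to 0.14 without control replicate 2, to 0.43 without control replicate 1 and to 0.11 with total counts, and passed the test in none of these (edgeR adjusted p = 0.663, 0.0902 and 0.614). Its fold of 1.21 was below 1.24, the smallest fold called in either direction among the 548 other genes with a mean count within 1.3-fold of it. The 1.20-fold change of Ctnnb1 would thus also lie below every fold called at the coverage of Tjp1. Since a gene's own spread did not enter its p-value, genes of like coverage were called nearly by fold alone. A fold below those called is therefore no result apart from the test.

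Cdh2 (ENSMUSG00000024304), the N-cadherin gene, had 161 and 243 counts in the 1-nitropyrene libraries and 185 and 170 counts in the control libraries. Its levels were 139 and 192 CPM in 1-nitropyrene cells and 141 and 143 CPM in control cells. The groups overlapped: replicate 3 of the 1-nitropyrene group was high, and replicate 2 was the lowest of the 4 libraries. The 1-nitropyrene libraries differed 1.39-fold from each other, with 95% Poisson intervals of 118 to 162 CPM for replicate 2 and 169 to 218 CPM for replicate 3, whereas the controls differed 1.02-fold. The mean was 166 ± 38.1 CPM with 1-nitropyrene and 142 ± 1.92 CPM in controls (SD, n = 2 each), and the difference did not pass the test (edgeR log2 fold change 0.23 ± 0.13 SE, adjusted p = 0.245). The 95% interval of the fold ran from 0.976 to 1.40. Its fold of 1.17 was likewise below the smallest called at like coverage, 1.25 among 579 genes, which again restates the test. The sign rested on replicate 3 of the 1-nitropyrene group, as the log2 fold change was -0.033 without it (edgeR adjusted p = 0.940) and 0.45 without replicate 2 (edgeR adjusted p = 0.0764).

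**Figure D2:**
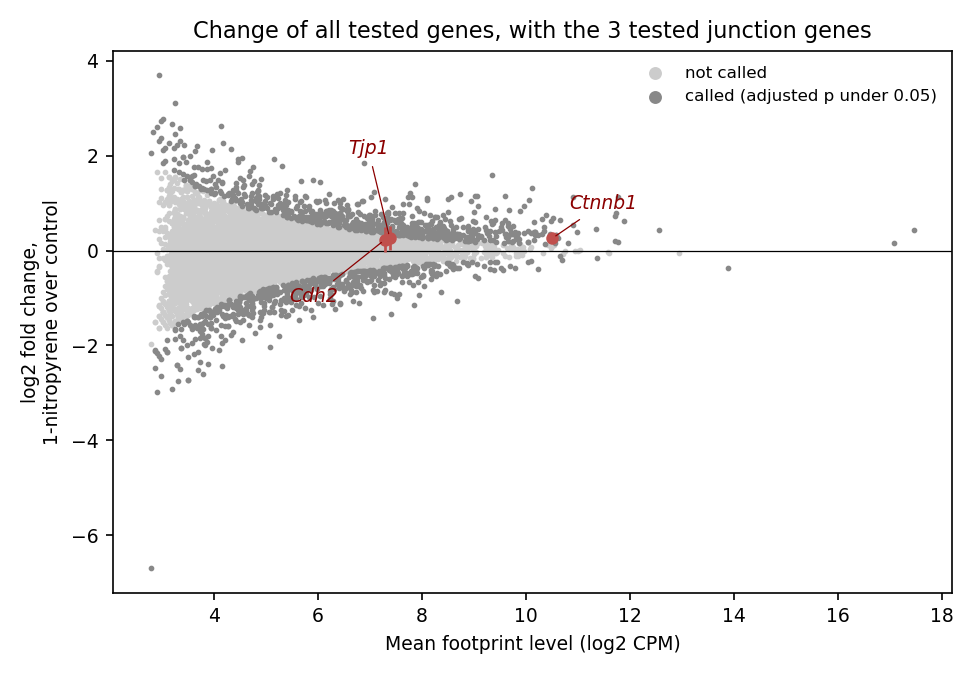
log2 fold change of 1-nitropyrene over control against mean log2 CPM for the 7719 tested genes, called genes in dark grey, with Ctnnb1, Tjp1 and Cdh2 in red and bars for their 95% intervals. Ctnnb1 lies at 0.26 among the best covered genes, and Tjp1 and Cdh2 lie at 0.27 and 0.23 within the band of genes not called.

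The members were also set against each other within each library, a measure that no scaling enters. For every 100 Ctnnb1 counts there were 11.1 and 11.6 Tjp1 counts in the 1-nitropyrene libraries and 12.0 and 10.5 Tjp1 counts in the control libraries. The 1-nitropyrene values lay inside the range of the controls, and the means were 11.4 ± 0.322 with 1-nitropyrene and 11.2 ± 1.04 in controls (SD, n = 2 each). For Cdh2 the values per 100 Ctnnb1 counts were 8.51 and 12.5 with 1-nitropyrene and 10.2 and 11.3 in controls, so that the 1-nitropyrene libraries lay on either side of both controls. The means were 10.5 ± 2.81 with 1-nitropyrene and 10.8 ± 0.733 in controls (SD, n = 2 each). Neither ratio differed between the groups beyond the spread between replicates; the smallest p that an exact two-sided permutation test of 2 libraries against 2 allows is 0.333.

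**Figure D3:**
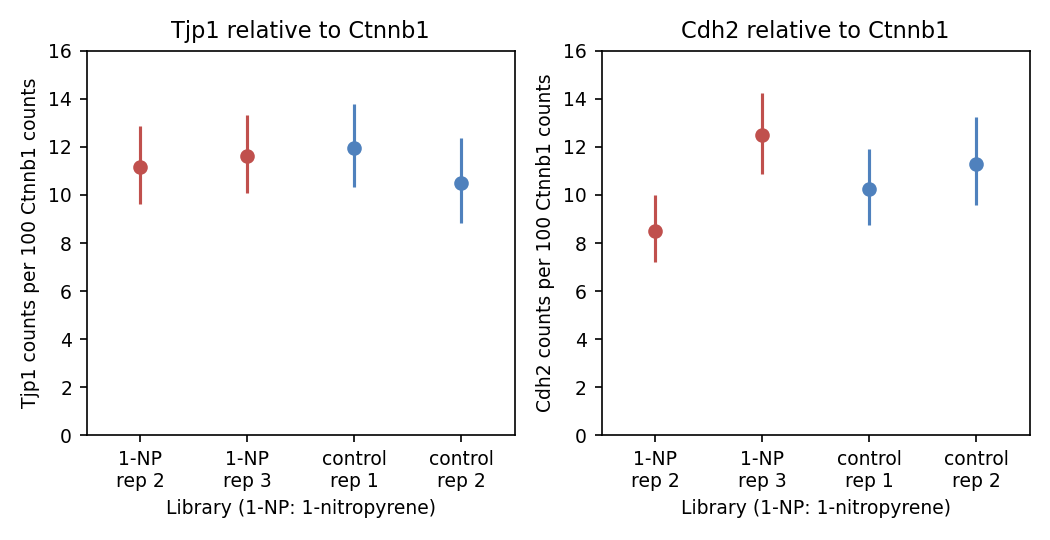
Counts of Tjp1 (left) and Cdh2 (right) per 100 Ctnnb1 counts in each library, 1-nitropyrene in red and control in blue, with 95% exact binomial intervals that cover counting error only. The Tjp1 values lie between 10.5 and 12.0, and the Cdh2 values of the 1-nitropyrene libraries, 8.51 and 12.5, lie on either side of the controls.

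Epcam (ENSMUSG00000045394) encodes a surface glycoprotein of epithelial cells that takes part in adhesion and binds claudins, and lies on chr17:87635979-87651127. It had 5 and 4 counts in the 1-nitropyrene libraries and 4 and 2 counts in the control libraries. Its levels of 4.30 and 3.17 CPM with 1-nitropyrene and 3.04 and 1.69 CPM in controls did not overlap, but replicate 3 of the 1-nitropyrene group and replicate 1 of the control group both had 4 counts, so that scaling alone sets them apart. It did not pass the filter on low counts. The 9 counts with 1-nitropyrene against 6 in controls gave a ratio of 1.55 after scaling, with a 95% exact binomial interval of 0.492 to 5.28 that covers counting error only. Without the filter the log2 fold change was 0.63 ± 1.0 SE (edgeR adjusted p = 0.744, n = 2 each). No difference in Epcam was detectable at this depth.

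The members that encode tight junction membrane proteins, Ocln, Cldn3, Cldn4 and Cldn7, had no footprint in any library, and other such genes were not examined. Ocln (ENSMUSG00000021638) encodes occludin, a membrane protein that spans the bilayer repeatedly, and is annotated on chr13:100496504-100552718. Cldn3 (ENSMUSG00000070473) and Cldn4 (ENSMUSG00000047501) encode claudins that are typical of tight epithelia and are neighbours on chromosome 5, at chr5:134986214-134987476 and chr5:134945123-134946934. Cldn7 (ENSMUSG00000018569), a claudin known to associate with the Epcam protein, is annotated on chr11:69964779-69967886. Dsp (ENSMUSG00000054889), the desmosomal plaque gene on chr13:38151294-38198577, and Cdh1 (ENSMUSG00000000303), the E-cadherin gene on chr8:106603350-106670247, likewise had 0 counts in 1-nitropyrene and control libraries.

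The upper limit behind a count of 0 was set at 3 counts, which is 2.58 and 2.38 CPM in replicates 2 and 3 of the 1-nitropyrene group and 2.28 and 2.53 CPM in replicates 1 and 2 of the control group. Over the libraries together the limit was 1.24 CPM for 1-nitropyrene, 1.20 CPM for control and 0.609 CPM for all 4, out of 4997737 counts. These limits cover counting error only and are not per coding length. No fold change can be given for these 6 genes. Of all IDs in the table, 74.3% had 0 counts in every library, but the table does not mark which IDs code for proteins, so that share is no background for coding genes.

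The cell line is labelled as lung epithelium. Cdh1, Ocln, Cldn3, Cldn4, Cldn7 and Dsp were at 0 and Epcam was at 2 to 5 counts per library. Tjp1, a tight junction gene as well, and Ctnnb1, both of which many cell types use, were well covered, as was Cdh2. The members are grouped here by their counts, so this grouping does not identify a cell type. Markers of alveolar type 2 cells and of other cell types could not be matched to IDs and are not analysed here. How reads that match several genes were counted, and on which strand, is not stated in the labels, and the part of the counting or of the state of the cells in these values was not tested.

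**Figure D4:**
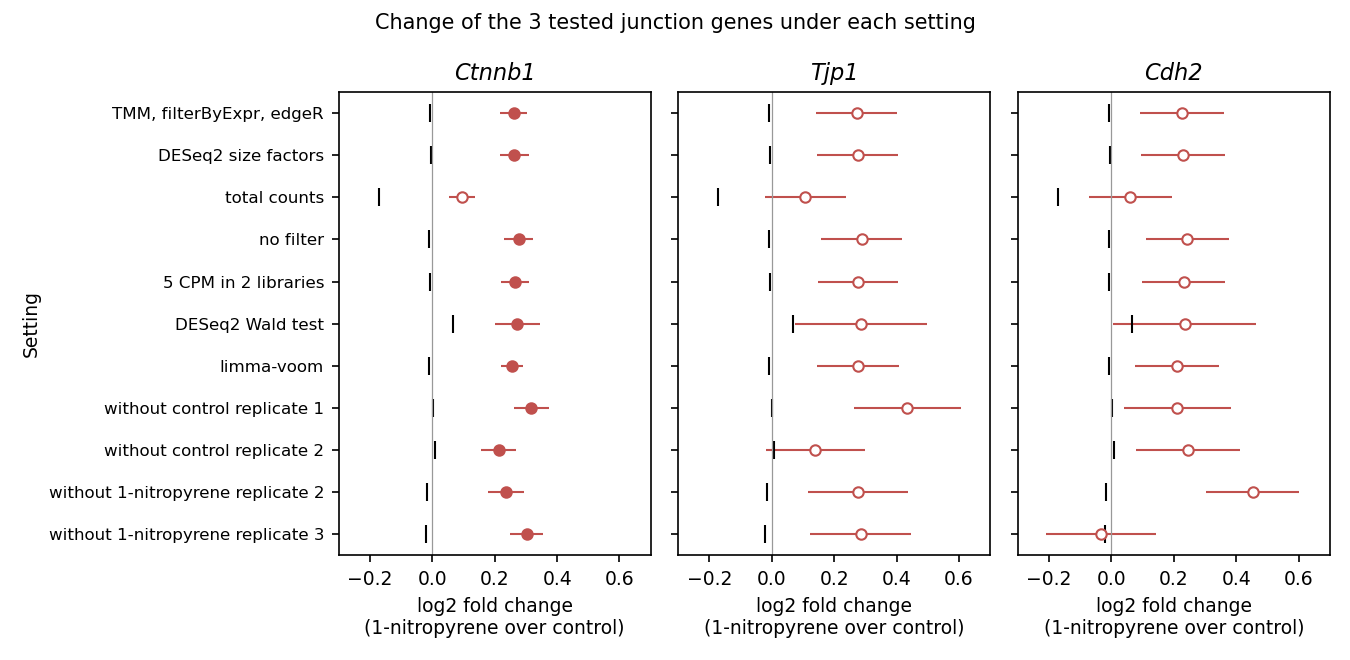
log2 fold change of 1-nitropyrene over control for Ctnnb1, Tjp1 and Cdh2 under the main setting (top) and each alternative, with bars for 1 SE; filled points passed an adjusted p of 0.05 and black ticks mark the median of all tested genes. Ctnnb1 passed in all settings shown except total counts, Tjp1 and Cdh2 passed in none, and Cdh2 fell to -0.033 without 1-nitropyrene replicate 3.

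With TMM the 3 tested members had similar estimates, 1.20-fold for Ctnnb1, 1.21-fold for Tjp1 and 1.17-fold for Cdh2. Their intervals overlap, and differences between the genes' changes were not tested. With total counts the log2 fold changes were 0.096, 0.11 and 0.061, against 0.26, 0.27 and 0.23 with TMM, and none was called. Between these scalings all genes shift by nearly the same amount, 0.16 in log2 at the median. The size of the 3 estimates thus depends on the scaling. Together the 10 genes held 0.180% of the total counts in 1-nitropyrene libraries and 0.169% in control libraries. TMM does not enter these shares, so they are not on the scale of the TMM folds. Ctnnb1 made up 81.9% of these counts, so that sum follows Ctnnb1.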

How the data were processed

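Ribosome-protected fragments were purified with a commercial kit, depleted of ribosomal RNA and made into small RNA libraries, per the labels' protocols. The authors deposited whole-number counts per Ensembl gene ID, with no normalization, and 0 other sample columns. The submitters' processing notes name the build mm10 and the tools featureCounts, HISAT2, Bowtie, cutadapt and DESeq2. What each did, its version and the annotation are not given in the sources at hand.

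Genes were filtered with edgeR's filterByExpr (minimum count 10, minimum total 15), scaled with TMM, and tested with edgeR's quasi-likelihood F test over all 4 libraries with no covariates (R 4.3.3, edgeR 4.0.16, limma 3.58.1, DESeq2 1.42.0), with Benjamini-Hochberg adjustment over 7719 genes. The script was tested on simulated counts. Standard errors were derived from the fold change and F. Of the 10 members, 3 passed the filter; every member is named by rule. Alternatives were scaling to total counts or by DESeq2's size factors, a filter of 5 CPM in 2 libraries or none, the DESeq2 Wald test, limma-voom and leaving out each library. The members and lists were chosen with earlier results of these data known. The 14 lists of symbols, on wider junction, beta-catenin, transition and cell type genes, could not be matched to IDs and were not run.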

Additional observations from a re-analysis of the deposited data

How the results depend on the processing

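Ctnnb1 kept its direction in 10 of 10 alternatives and its call in 9, with log2 fold changes of 0.096 to 0.32. With total counts edgeR called 0 members, with Ctnnb1 alone at an unadjusted p under 0.05. The DESeq2 Wald test called Ctnnb1 (adjusted p = 0.0035). Tjp1 was positive and not called in 10 of 10 alternatives (0.11 to 0.43, adjusted p 0.0902 to 0.663). Cdh2 was called in none (adjusted p 0.0764 to 0.940) and ranged from -0.033 without 1-nitropyrene replicate 3 to 0.45 without 1-nitropyrene replicate 2; the cause was not tested. Over all genes, the 1332 calls, 747 higher and 585 lower, became 406 higher and 1110 lower with total counts (26.8% higher, against 56.1% with TMM), and 311, 234 higher and 77 lower, with the DESeq2 Wald test. Without 1 library, where a lone sample is taken to vary as the pair does, there were 572 to 834 calls, 382 to 480 higher and 190 to 354 lower, from fewer samples, and 1 member, Ctnnb1, each time. The other alternatives kept these counts within 1.5 times. No paired analysis was possible because number 2 alone occurs in both groups. The alternatives for the lists of symbols were not run. At 3 counts or fewer, and at the 2 to 5 counts of Epcam, depth limits what can be seen.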
